A study of Mus musculus with 6 samples.

Results

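The genes described here are 9 markers and regulators of neuroendocrine differentiation, chosen by gene symbol from the 58735 genes of the count table. They are *CHGA*, *CHGB*, *SCG2* and *SCG3*, which encode granins, *SYP*, *ENO2*, *NCAM1* and *INSM1*, and the repressor gene *REST*. All 9 symbols were found once each, and 7 of them had enough counts to be tested between parental and resistant cells. *NCAM1* and *INSM1* were not tested.

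RNA-Seq covered 22Rv1, a human prostate cancer cell line of castration-resistant origin, in 2 groups of 3 libraries. Parental cells were cultured with vehicle, and the 22Rv1 BL-B01D1_R subline was derived from them under rising concentrations of BL-B01D1, a bispecific antibody-drug conjugate against EGFR and HER3 that carries a topoisomerase I inhibitor. The subline came from 1 selection. The methods call the 3 libraries of a group duplicates and nothing says that they were separate cultures, so *P* values measure the spread between these libraries, which may be technical. The labels give *Mus musculus* as the organism, whereas the cell line, the gene identifiers and the hg38 genome build are human, and human genes are reported here. Counts on genes ranged from 13821639 to 17251491 per library, and 3 counts corresponded to between 0.174 and 0.216 CPM, the count scaled to a library of 1000000 counts. This is the limit that a count of 0 allows, and it covers counting error only.

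Neuroendocrine cells store peptide hormones in dense-core vesicles. Granins are acidic proteins that help form these vesicles and are cut into peptides there, synaptophysin lies in the membrane of small vesicles, and INSM1 is a transcription factor of neuroendocrine progenitors. REST silences neuronal and neuroendocrine genes, several granin genes among them, in cells of other lineages. In prostate cancer, chromogranin, synaptophysin and CD56, the product of *NCAM1*, are stained to recognize tumors that have moved from a luminal adenocarcinoma to a neuroendocrine state.

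The labeled cell type was checked against markers of luminal prostate cancer cells. Of 19 such genes in the table, 18 passed the filter on low counts and *TRPM8* did not. Their summed level was 5482 to 5641 CPM in parental and 6697 to 6806 CPM in resistant libraries. Single markers differed widely in level. *FOLH1*, which encodes prostate-specific membrane antigen, stood at 655 ± 25.6 CPM in parental and 737 ± 20.3 CPM in resistant cells, whereas *KLK3*, which encodes prostate-specific antigen, was low at 2.67 ± 0.577 and 4.96 ± 1.24 CPM (SD, *n* = 3 each). Of 22 markers of basal, immune, endothelial, stromal and glial cells, 15 had at most 10 counts in every library. Their summed level was 116 to 121 CPM in parental and 56.7 to 61.1 CPM in resistant libraries. *LUM*, which encodes the matrix proteoglycan lumican, was the most abundant of them in both lines. *PTPRC*, *CD3E*, *PECAM1*, *KRT5* and *KRT14* were among the 15. The part of these genes in the results below was not tested.

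Levels of different genes were compared as FPKM, which is the CPM value divided by the listed gene length in kilobases. In parental cells the order was *ENO2* (35.5 ± 1.03 FPKM), *SCG3* (23.6 ± 0.774), *SYP* (19.7 ± 1.46), *REST* (13.1 ± 0.769), *CHGA* (12.7 ± 0.514), *CHGB* (5.33 ± 0.291) and *SCG2* (1.07 ± 0.216), each a mean ± SD of 3 libraries. *REST* and *CHGA* overlapped in their libraries, and all other neighbors in this order were apart. The order depends on the listed gene lengths. Before division by length, *SCG3* stood at 78.3 ± 2.56 CPM in parental cells, below *SYP* at 103 ± 7.63 and *REST* at 104 ± 6.14 CPM (SD, *n* = 3 each). *ENO2* stood above 96.3% and *CHGA* above 88.1% of the 34035 genes with any count. In resistant cells *ENO2*, *SCG3*, *SYP* and *REST* kept these places, *CHGB* came next at 8.35 ± 0.359 FPKM (SD, *n* = 3), and *CHGA* followed at 2.64 ± 0.159 FPKM (SD, *n* = 3), above 68.9% of genes. *NCAM1* and *INSM1* stood last in both lines with at most 0.0240 FPKM in any library.

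**Figure D1:**
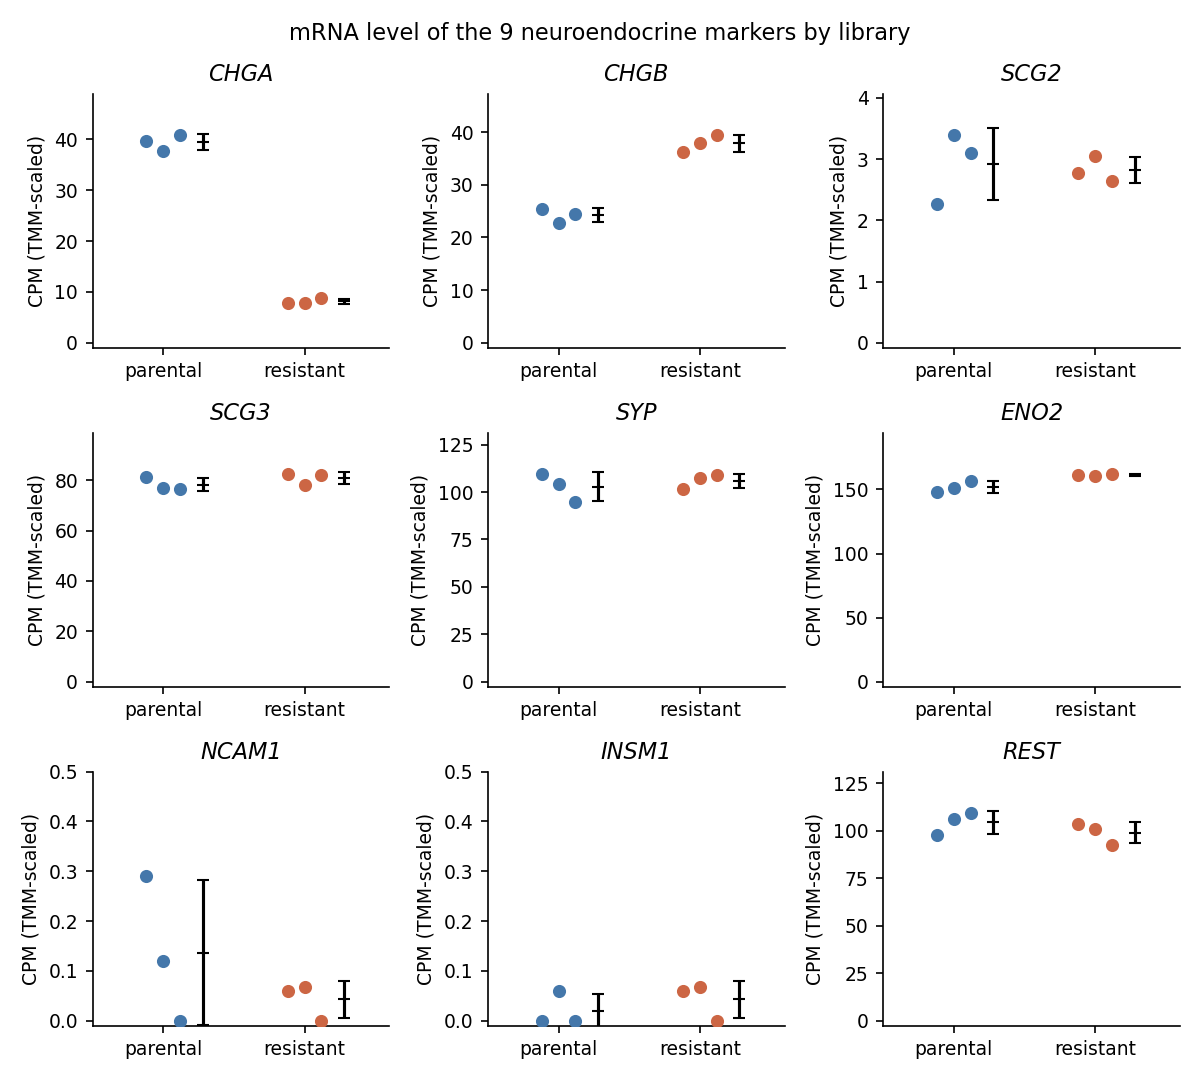
Level of each of the 9 genes in each library in CPM (y axis, linear, separate scale per gene), with parental libraries in blue and resistant libraries in orange. Each dot is 1 library, and the black mark with its bar is the mean ± SD of 3 libraries. *CHGA* was lower and *CHGB* higher in all resistant libraries, whereas the groups overlapped for *SCG2*, *SCG3*, *SYP* and *REST*.

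Among the 7 tested genes, *CHGA* fell and *CHGB* rose in resistant cells, and *ENO2* passed the threshold with a small increase that most other settings did not retain. A gene was called at a false discovery rate (FDR) of less than 0.05 with an absolute log2 fold change greater than 1, which 5.37% of the 17142 tested genes reached, 2.53% higher and 2.84% lower. *CHGA* was the 1 gene called of the 7, and it was lower. At an FDR of less than 0.05 alone, which 35.5% of tested genes reached (17.1% higher and 18.4% lower), the 7 genes gave 2 higher and 1 lower, and 4 did not pass. All resistant libraries lay to 1 side of all parental libraries for *CHGA*, *CHGB* and *ENO2*, as they did for 44.8% of all tested genes, with 22.1% higher and 22.8% lower. The count of genes that changed was thus close to the background, and the size of the *CHGA* difference was what set it apart from the other 6. The median log2 fold change was 0.04 over the 7 genes and 0.00379 over all tested genes.

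*CHGA* (ENSG00000100604; chromosome 14 of hg38, 92923080 to 92935293, forward strand) encodes chromogranin A, the granin used most widely as a serum and tissue marker. It had 684, 633 and 567 counts in parental libraries 1, 2 and 3, and 131, 116 and 142 counts in resistant libraries 1, 2 and 3. Scaled to library size these were 39.7, 37.7 and 40.8 CPM in parental cells and 7.90, 7.89 and 8.75 CPM in resistant cells. Every resistant library was far below every parental library, and the spread within each group was small beside the gap. *CHGA* was 4.81-fold lower in resistant cells, with a log2 fold change of −2.26 (SE 0.087, FDR 2.49e-24, edgeR's quasi-likelihood test, adjusted after Benjamini and Hochberg over all tested genes). Leaving out any 1 library gave values from −2.32 to −2.24. Of the 487 genes called lower, *CHGA* stood at place 17 by *P* value and at place 50 by log2 fold change. In bulk RNA, fewer cells that express a gene and less RNA per cell cannot be told apart.

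*CHGB* (ENSG00000089199; chromosome 20, 5911430 to 5925361, forward strand) encodes chromogranin B, the granin most closely related to chromogranin A in its role in the vesicle. Its counts were 437, 382 and 339 in parental libraries and 600, 559 and 640 in resistant libraries. These corresponded to 22.7 to 25.4 CPM in parental cells against 36.2 to 39.4 CPM in resistant cells. The resistant libraries were all above the parental ones, opposite to *CHGA*. *CHGB* was 1.57-fold higher, with a log2 fold change of 0.65 (SE 0.071, FDR 6.59e-10, the same edgeR test), which did not reach the fold threshold for a call.

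*SCG3* (ENSG00000104112; chromosome 15, 51681353 to 51721031, forward strand) encodes secretogranin III, which binds chromogranin A and anchors it at the vesicle membrane. It was measured at 81.2, 77.0 and 76.6 CPM in parental libraries and 82.5, 78.2 and 82.2 CPM in resistant libraries. The groups overlapped, and the fold between them was 1.03 with a 95% interval of 0.97 to 1.10 (FDR 0.451, edgeR). *SCG2* (ENSG00000171951; chromosome 2, 223596940 to 223602503, reverse strand), which encodes secretogranin II, the precursor of secretoneurin, had 39, 57 and 43 counts in parental and 46, 45 and 43 counts in resistant libraries. The groups overlapped here too, at a depth that left the fold between 0.708 and 1.33 (95% interval, FDR 0.910, edgeR).

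The opposite changes of the chromogranins were also seen within each library, where no scaling between libraries enters. The ratio of *CHGA* to *CHGB*, both per length, was 2.29, 2.42 and 2.45 in parental libraries and 0.319, 0.303 and 0.324 in resistant libraries. Thus *CHGA* was the more abundant chromogranin mRNA in all parental libraries and the less abundant one in all resistant libraries. The ratio was 7.56-fold lower in resistant cells (*P* = 0.1 by a two-sided exact permutation test, which with 3 libraries against 3 cannot go lower). Both genes were already apart between the groups, so this test adds no separate evidence.

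Of the granin genes, only the 4 chosen here, *CHGA*, *CHGB*, *SCG2* and *SCG3*, were summed. Their summed level was 42.7 ± 1.04 FPKM in parental and 36.4 ± 0.830 FPKM in resistant cells (SD, *n* = 3 each). *VGF*, a granin family gene left out of the sum, stood at 283 ± 6.76 and 286 ± 4.79 FPKM, respectively. *PCSK1N*, which encodes a granin-like protein and was also left out, stood at 52.8 ± 1.32 and 87.8 ± 0.474 FPKM (SD, *n* = 3 each). The sum of the 4 genes and its shares therefore do not describe all granin mRNA. *CHGA* made up 29.7% ± 0.896 of this sum in parental cells and 7.23% ± 0.297 in resistant cells (SD, *n* = 3 each). The share of *CHGB* was 12.5% ± 0.384 in parental and 22.9% ± 0.877 in resistant cells, and that of *SCG3* was 55.3% ± 1.12 and 67.0% ± 1.14 (SD, *n* = 3 each). None of the 3 shares overlapped between the groups (*P* = 0.1 for each by the same exact permutation test). Shares of 1 sum are tied to each other, and *SCG3* gained in share while its own level did not differ beyond the replicate spread.

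**Figure D2:**
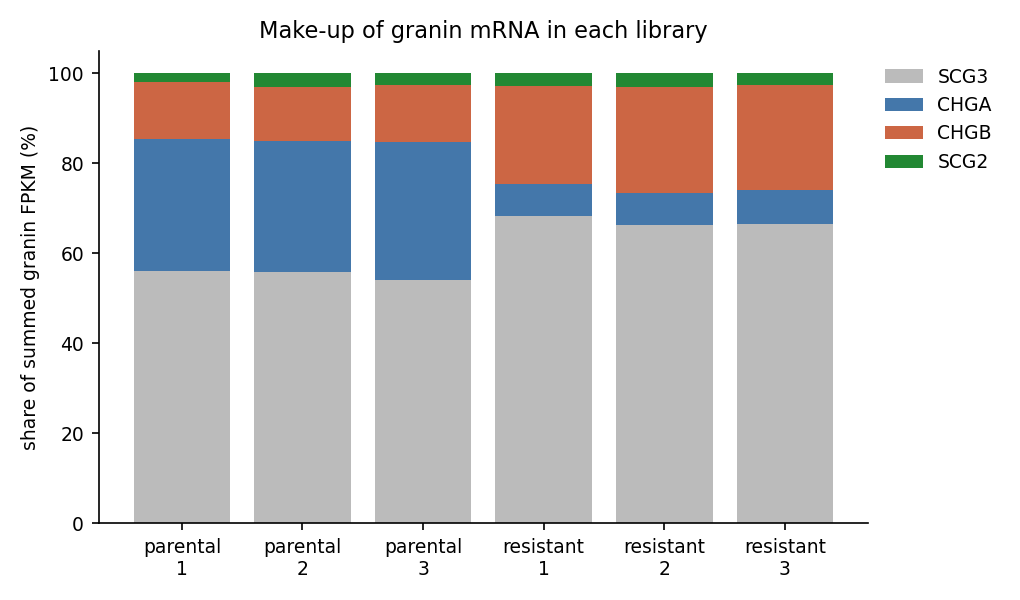
Share of the summed FPKM of *SCG3*, *CHGA*, *CHGB* and *SCG2* (y axis, percent) in each of the 6 libraries (x axis), with 1 stacked bar per library. The blue part, *CHGA*, takes 29.2% to 30.8% of each parental bar and 6.99% to 7.56% of each resistant bar.

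*SYP* (ENSG00000102003; chromosome X, 49187804 to 49200259, reverse strand) encodes synaptophysin, the vesicle membrane protein stained in the clinic. It was measured at 110, 104 and 94.5 CPM in parental libraries and 102, 107 and 109 CPM in resistant libraries. The groups overlapped, with a fold of 1.03 (95% interval 0.966 to 1.10, FDR 0.531, edgeR). A change of *SYP* of the size seen for *CHGA* or *CHGB* therefore lay outside its interval.

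*ENO2* (ENSG00000111674; chromosome 12, 6913745 to 6923698, forward strand) encodes neuron-specific enolase, a glycolytic enzyme. It was measured at 148, 151 and 157 CPM in parental libraries and 161, 161 and 162 CPM in resistant libraries. The groups were apart, but by little. The fold was 1.06 (95% interval 1.01 to 1.12, log2 fold change 0.09, SE 0.035, FDR 0.0448, edgeR). The FDR was 0.105 with library size alone in place of TMM scaling, 0.0921 with DESeq2, 0.0820 without a filter and 0.0429 with limma-voom. It rose to between 0.0872 and 0.158 when parental library 1 or 2 or any of the resistant libraries was left out, and was 0.0230 without parental library 3. Within each library, *ENO2* made up 13.7% to 14.2% of the FPKM of *ENO1*, *ENO2* and *ENO3* in parental cells and 15.1% to 15.4% in resistant cells (exact permutation test, two-sided, *P* = 0.1). The end of the upstream gene *LRRC23* overlaps the start of *ENO2* on the same strand, and *LRRC23* had at most 119 counts in any library.

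*NCAM1* (ENSG00000149294; chromosome 11, 112961247 to 113278436, forward strand) had 5, 2 and 0 counts in parental and 1, 1 and 0 counts in resistant libraries. *INSM1* (ENSG00000173404; chromosome 20, 20368121 to 20370949, forward strand) had 0, 1 and 0 counts in parental and 1, 1 and 0 counts in resistant libraries. Both genes were thus at or near the detection limit in both lines, and no difference was detectable at this depth.

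*REST* (ENSG00000084093; chromosome 4, 56907876 to 56966678, forward strand) was measured at 97.6, 106 and 109 CPM in parental libraries and 103, 101 and 92.7 CPM in resistant libraries. The groups overlapped, and the fold was 0.949 (95% interval 0.890 to 1.01, FDR 0.207, edgeR). Without parental library 1 the log2 fold change was −0.12 with an FDR of 0.0341. *NOA1* overlaps the end of *REST* on the opposite strand with 891 to 1195 counts per library, and whether counting used strand is not given in the sources used here. Gene-level counts do not separate the spliced forms of *REST*.

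**Figure D3:**
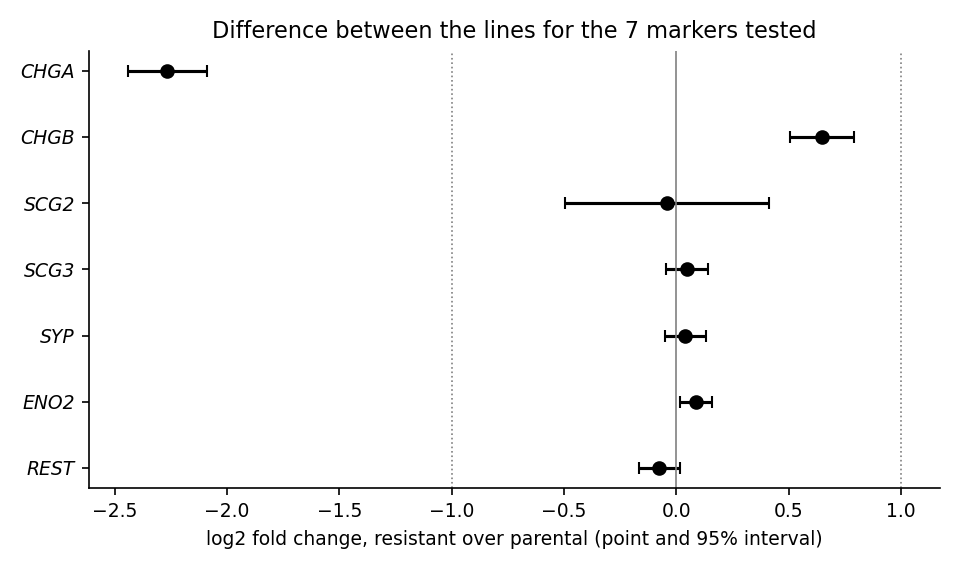
Log2 fold change of the 7 tested genes, resistant over parental (x axis), with points for the edgeR estimate and bars for its 95% interval. The dotted lines mark an absolute log2 fold change of 1. *CHGA* lies at −2.26 and *CHGB* at 0.65, and the intervals of *SCG2*, *SCG3*, *SYP* and *REST* include 0.

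The genes around *CHGA* were examined next. Of 10 tested genes within 500000 bases on either side, 1 was higher and 3 were lower at an FDR of less than 0.05. At this threshold 17.1% of all tested genes were higher and 18.4% lower. The median log2 fold change of the 10 genes was −0.08, and *RIN3*, named here after its value was seen, was called lower at −1.65. Around *CHGB*, 2 of 10 tested neighbors were higher and 2 lower, none of them called, with a median log2 fold change of −0.12. *PCSK1N*, described below, was 1 of the 2 higher genes among 23 tested neighbors of *SYP*. The width of this window was chosen after the data were seen.

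Among 15549 other tested genes with a mean of at least 1 CPM, the profiles over the 6 libraries closest to that of *CHGA* were those of *SORL1*, *ERN1* and *AFAP1-AS1*. Their centered log2 CPM values differed from those of *CHGA* by a root mean square of 0.110, 0.115 and 0.133, respectively. *SORL1* encodes a sorting receptor and had a log2 fold change of −2.47, and *ERN1* encodes the endoplasmic reticulum stress sensor IRE1 and had one of −2.43. *AFAP1-AS1*, an antisense RNA, had a log2 fold change of −2.08 and carries the uncertainty of strand given above. With 2 groups, such likeness mostly reflects the size of the difference between the lines.

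Granin relatives, prohormone-processing enzymes, other proteins of dense-core vesicles or of neuroendocrine cells and peptide hormones formed a list of 24 genes, of which 13 were tested. At an FDR of less than 0.05, 5 were higher, 4 were lower and 4 did not pass, with a median log2 fold change of 0.02. For this list and those below, the shares of all tested genes were 17.1% higher, 18.4% lower and 5.37% called. *PCSK1*, the convertase that cuts prohormones at basic sites, was the gene called. It was measured at 6.56, 5.84 and 5.62 CPM in parental libraries and 25.8, 22.6 and 21.6 CPM in resistant libraries. All resistant libraries were well above the parental ones, and the log2 fold change was 1.95 (SE 0.11, FDR 1.52e-18, edgeR). *PCSK1N*, which encodes the granin-like protein proSAAS, an inhibitor of this convertase, rose with a log2 fold change of 0.73, from 72.0 ± 1.80 to 120 ± 0.646 CPM (SD, *n* = 3 each).

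*CPE*, the carboxypeptidase that trims the cut ends, rose with a log2 fold change of 0.53, and *CALCA*, the calcitonin precursor gene, with one of 0.82 (1.01 without parental library 1). *CADPS2*, which primes dense-core vesicles for release, fell from 95.3 ± 1.94 to 56.0 ± 3.43 CPM (SD, *n* = 3 each; log2 fold change −0.77), and *CPD*, another carboxypeptidase, had a log2 fold change of −0.17 (FDR 1.65e-04, edgeR). *VGF*, a granin family gene, was the most abundant gene of this list at 765 ± 18.3 CPM in parental and 775 ± 13.0 CPM in resistant cells (SD, *n* = 3 each; FDR 0.608, edgeR). Hormone genes *GRP*, *NTS*, *SST* and *GAST* had at most 10 counts in every library. Between the convertase and its granin substrate, the ratio of *PCSK1* to *CHGA* per length was 0.0892 ± 0.00816 in parental and 1.67 ± 0.232 in resistant cells (SD, *n* = 3 each; exact permutation test, two-sided, *P* = 0.1). Both genes were already apart between the groups, in opposite directions, so the outcome of this test was fixed beforehand.

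Vesicle and exocytosis genes, to which *SYP* belongs by function, numbered 38, with 33 tested. At an FDR of less than 0.05, 10 were higher, 6 were lower and 17 did not pass, and 3 were called. *SYT4*, a synaptotagmin of secretory vesicles, rose from 155 ± 5.57 to 376 ± 4.77 CPM (SD, *n* = 3 each; log2 fold change 1.28, FDR 4.09e-31, edgeR). *RIMS1*, a scaffold of the release site, was called higher (log2 fold change 1.03, but 0.964 without parental library 2 and 0.960 without resistant library 3), and *RAB3C*, a vesicle GTPase, was called lower (−1.42). *UNC13B* (0.66) and *RAB3B* (0.61) were higher, and *RAB3D* (−0.702) and *UNC13A* (−0.26) were lower. Relatives of 1 family therefore differed in direction, as the chromogranins did. *SYNGR2* was measured at 244 ± 6.92 CPM in parental and 253 ± 2.57 CPM in resistant cells (SD, *n* = 3 each; FDR 0.223, edgeR).

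**Figure D4:**
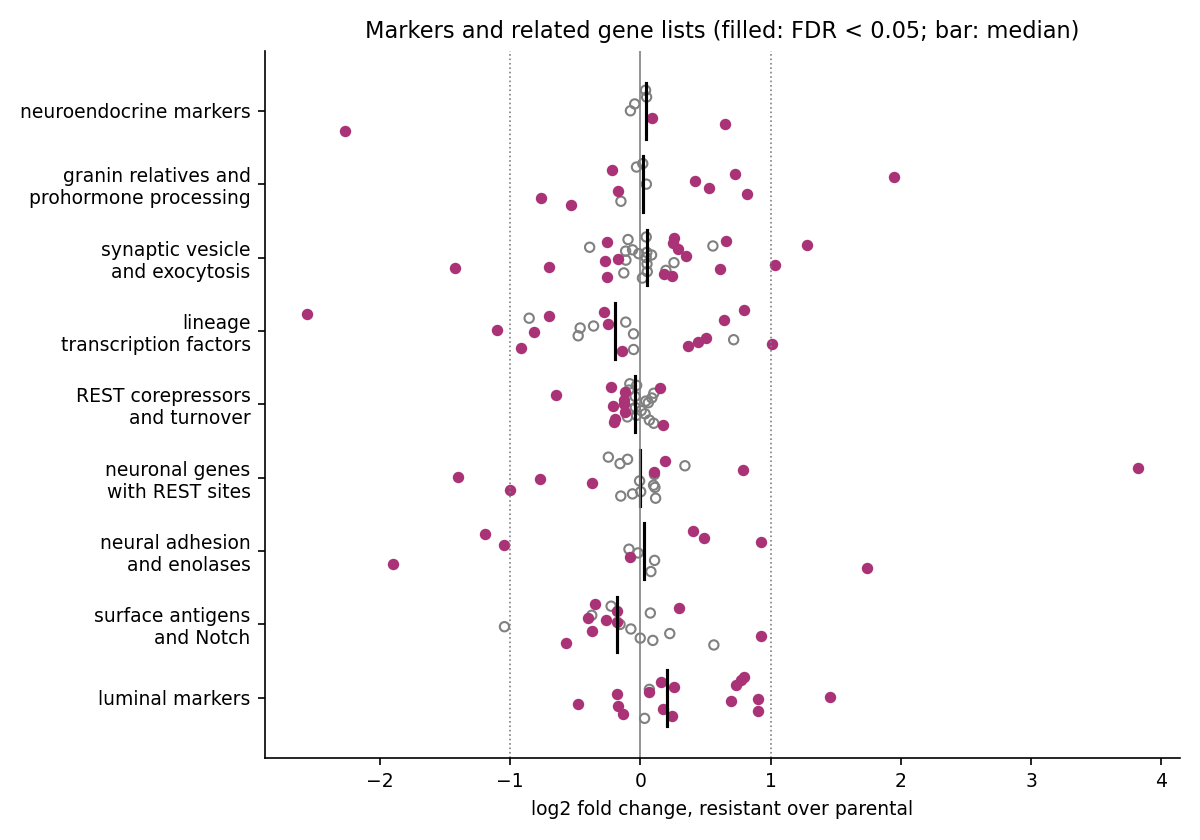
Log2 fold change, resistant over parental (x axis), of each tested gene of the neuroendocrine markers and of 8 related lists (rows). Filled points passed an FDR of less than 0.05, open points did not, vertical bars are medians and dotted lines mark an absolute log2 fold change of 1. Each list holds genes on both sides of 0. The medians run from −0.19 for the lineage transcription factors to 0.21 for the luminal markers.

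Transcription factors of neuroendocrine and neuronal lineages were listed as 42 genes, of which 22 were tested and 19 had at most 10 counts in every library. *NEUROD1*, which drives neuroendocrine cancers of the lung, was among the latter. It had 1 count in resistant library 1 and 0 in all others, and *FOXA2* and *POU3F4* had 0 in all libraries. Other factors of the list were expressed in both lines. *POU3F2* had 236, 225 and 156 counts in parental and 331, 277 and 343 counts in resistant libraries. It was higher, with a log2 fold change of 0.64 (FDR 7.26e-07, edgeR). *ONECUT2* had 954 to 1323 counts per library and was lower at −0.25 (FDR 1.55e-04, edgeR). Of the 22 tested genes, 6 were higher, 8 were lower and 8 did not pass, with a median log2 fold change of −0.19. *SOX11*, a factor of neural progenitors, fell from 45, 44 and 49 counts to 5, 11 and 7 counts (log2 fold change −2.56, FDR 7.45e-08, edgeR), and *MYT1* was called lower at −1.10. *ID3* was called higher (1.01), whereas *ID1* fell (−0.92). The call of *ID3* was lost to the fold threshold with library size alone (0.996), without parental library 2 (0.998) and without resistant library 3 (0.999). Both genes encode inhibitors of basic helix-loop-helix factors. *TOX3* (0.80) was higher and *MYCL* (−0.81) lower. *MYC* was measured at 270 ± 8.44 and 260 ± 6.77 CPM (SD, *n* = 3 each; FDR 0.212, edgeR).

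REST acts through corepressors and is controlled by splicing and degradation. All 27 genes of this list were tested, of which 2 were higher, 9 were lower and 16 did not pass, and none was called. *RCOR2*, which encodes a corepressor of the CoREST family, had the largest of the changes that passed, at a log2 fold change of −0.65 (FDR 1.56e-04, edgeR). *KDM1A*, the histone demethylase of that complex, was lower at −0.21 and *PTBP1*, a splicing repressor, at −0.12. *RCOR1*, which encodes CoREST itself, was measured at 69.1 ± 2.15 CPM in parental and 67.3 ± 4.06 CPM in resistant cells (SD, *n* = 3 each; FDR 0.601, edgeR). *SRRM4*, the neural splicing factor that produces a truncated REST, was abundant in both lines at 283 ± 8.88 and 277 ± 5.73 CPM (SD, *n* = 3 each; FDR 0.529, edgeR). Its relative *SRRM3* was lower at −0.23 (FDR 0.00380, and 0.0639 without parental library 3, edgeR), and *HDAC1* was measured at 375 ± 11.8 and 359 ± 7.50 CPM (SD, *n* = 3 each; FDR 0.0941, but 0.0324 with library size alone and 0.0200 without parental library 1, edgeR).

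Neuronal genes that are widely described as carrying REST-binding sites were listed as 30 genes, with 20 tested. At an FDR of less than 0.05, 4 were higher, 4 were lower and 12 did not pass, and the median log2 fold change was −0.000902. *NEFL*, a neurofilament gene, rose from 3, 5 and 0 counts to 46, 31 and 40 counts (log2 fold change 3.82, FDR 5.62e-09, edgeR), and *NEFH*, another neurofilament gene, was higher at 0.79. *L1CAM*, a neural adhesion gene, fell from 27.9 ± 1.69 to 10.6 ± 1.93 CPM (SD, *n* = 3 each; log2 fold change −1.40). *CHRM4*, a muscarinic receptor gene, lay just past the fold threshold with −1.001. It fell short of it with DESeq2, no filter or the replicate block, and without parental library 1 (−0.928) or resistant library 1 (−0.927). The ion channel genes *KCNH2* (−0.77) and *GRIA2* (−0.37) were lower. *STMN3* was higher at 0.19 and *MAPK8IP2* at 0.10, the latter not without parental library 2 or 3 or resistant library 2 (FDR 0.0666 to 0.0794, edgeR), while *CELSR3* had 199 ± 6.77 and 199 ± 0.933 CPM (SD, *n* = 3 each; FDR 0.952, edgeR).

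Relatives of *NCAM1* and *ENO2* gave 4 higher and 4 lower of 12 tested genes, and 4 genes were called. *NCAM2*, the paralog of *NCAM1*, was well above the detection limit, unlike *NCAM1*, and rose from 41.4 ± 0.969 to 78.7 ± 2.45 CPM (SD, *n* = 3 each; log2 fold change 0.93, FDR 2.38e-18, edgeR). *ST8SIA4*, whose enzyme adds polysialic acid to NCAM proteins, was higher at 0.40. *CADM2* was called higher (1.74), and *CHL1* (−1.90), *NRCAM* (−1.19) and *FYN* (−1.04) were called lower, *FYN* short of the fold threshold without parental library 1 (−0.889) or resistant library 1 (−0.970). *NFASC* was higher at 0.49. *ENO1*, the ubiquitous enolase gene, was lower at −0.08 (FDR 0.00592, edgeR).

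Surface antigens of neuroendocrine tumors and Notch pathway genes gave 2 higher and 7 lower of 19 tested genes, and none was called. *DLL3*, the Notch ligand targeted in neuroendocrine cancers, had 59, 56 and 46 counts in parental and 39, 39 and 29 counts in resistant libraries (log2 fold change −0.57, FDR 0.0447, edgeR). Its FDR was above the threshold in 8 of 11 alternatives, among them DESeq2 (0.117), no filter (0.0742), the replicate block (0.0561) and the omission of any library but resistant library 2 (up to 0.194). *NOTCH3* was lower at −0.40, and *SEZ6L2* (0.30) and the Notch target gene *HEY1* (0.93, and 1.03 without resistant library 2) were higher. *RBPJ*, which encodes the DNA-binding factor of the pathway, was measured at 128 ± 5.38 and 136 ± 1.78 CPM (SD, *n* = 3 each; FDR 0.115, and 0.0287 without parental library 1, edgeR).

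Luminal markers, the counterpart of the neuroendocrine genes in the clinic, gave 12 higher, 4 lower and 2 that did not pass among 18 tested genes, with a median log2 fold change of 0.21. Of all tested genes, 17.1% were higher and 18.4% lower at an FDR of less than 0.05. *KLK4*, a kallikrein gene, was called higher, from 173 ± 9.77 to 474 ± 9.99 CPM (SD, *n* = 3 each; log2 fold change 1.46, FDR 1.05e-32, edgeR). The luminal genes *FKBP5* (0.902) and *TMPRSS2* (0.79) were higher too. *KLK3* had 35, 53 and 39 counts in parental and 87, 53 and 98 counts in resistant libraries (log2 fold change 0.91, FDR 6.06e-04, edgeR), and its groups were apart once scaled to library size. Without parental or resistant library 2 the log2 fold change was 1.06 or 1.09. *FOLH1* was higher at 0.17.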

How the data were processed

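Poly(A)-selected RNA of 6 libraries, 3 per group as titled in the labels, was sequenced for the authors on an Illumina NovaSeq instrument. According to the methods and the submitters' processing notes, reads were processed with fastp, mapped to hg38 with HISAT2 (2.0.5) and counted per gene with featureCounts (1.5.0-p3). The authors deposited raw counts without normalization, with gene name, position and length (another quantity, in bases) in the same table. The annotation release and strand setting are not given in the sources used here. All columns of per-sample values were used.

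Low deposited counts were removed by filterByExpr, libraries were scaled by TMM, and resistant cells were tested against parental cells by the quasi-likelihood method of edgeR (4.0.16, R 4.3.3), with Benjamini-Hochberg adjustment over 17142 genes. The SE of a log2 fold change was taken from the F statistic. CPM and FPKM use TMM-adjusted library sizes. Alternatives were library size alone, DESeq2 (1.42.0), limma-voom (3.58.1, from the package in the authors' methods), no filter, the replicate number as a block, and each library left out. Libraries of a group differed by more than sampling noise (chi-square per degree of freedom 1.79 to 2.48, against 20.6 to 23.8 across groups). All were used as separate samples, but this spread does not show that they came from separate cultures. The scripts were tested on simulated counts.

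The 9 genes, the related lists and the naming rule were chosen with earlier results of these data known, and lists are therefore described by counts and medians without a set test. From each list, up to 5 called genes by *P* value, up to 3 further genes past the FDR threshold by size and up to 3 of the most abundant genes were named, with *KLK3*, *NEUROD1*, *SRRM4* and *RCOR1* in any case. Genes named outside this rule, chosen after their values were seen, are *FOXA2*, *POU3F4*, *POU3F2*, *ONECUT2*, the hormone genes, the immune, endothelial and basal markers, *TRPM8*, *RIN3*, *LRRC23* and *NOA1*. Some genes that the rule names are not reported here.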

Additional observations from a re-analysis of the deposited data

How the results depend on the processing

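Depth limits *NCAM1*, *INSM1* and *SCG2* most, and the cause of the changes below was not tested unless a setting itself shows it. *CHGA* and *CHGB* kept their direction and significance in all alternatives run, with log2 fold changes of −2.28 to −2.26 and 0.632 to 0.650 across settings and −2.32 to −2.24 and 0.603 to 0.686 with a library left out. The number of the 9 genes that were higher, 2, was 1 with library size alone, DESeq2, no filter or the replicate block, through *ENO2* (FDR 0.0556 with the block), and 1 to 2 with a library left out (2 only without parental library 3). The number lower was 1 to 2 (2 without parental library 1, through *REST*). Without parental library 3, the log2 fold change of *SYP* was −0.0126 (range up to 0.0884), and that of *SCG2* ranged from −0.205 to 0.0888 and turned positive without parental library 2 or 3 or resistant library 3, all without significance.

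Of the 344 list and marker counts recomputed, 314 stayed within 1.5 times. Called granin and prohormone genes, 1, were 3 without a filter and 1 to 2 with a library left out (2 without parental library 1). Higher REST corepressor genes, 2, were 1 with library size alone, DESeq2 or no filter, and 1 to 2 with a library left out (1 without parental library 1 or 2 or resistant library 2 or 3). Called surface and Notch genes, 0, were 1 with limma-voom or no filter and 0 to 1 with a library left out (1 without resistant library 1 or 2). Called luminal genes, 1, were 1 to 2 (2 without parental library 2 or resistant library 2). Lower markers of other cell types, 2, were 1 with DESeq2 or no filter and 1 to 2 with a library left out (1 without parental library 2 or resistant library 1 or 2). The older symbol *ACPP*, tried after seeing the data because *ACP3* is not in the table, changed no count by over 1.5 times.

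Same-numbered libraries did not deviate together (correlations −0.0196 to −0.00806, against −0.00106 to 0.0170 for differently numbered ones). The numbers thus gave no sign of pairing. Whether same-numbered libraries shared a culture or preparation was not tested, and correlations this small cannot decide it. With the replicate block, 1 of the 9 genes was higher and 1 lower.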

Other observations

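*SOX2*, a stem cell and lineage plasticity factor, was not tested and was named after its counts were seen. It had 0, 11 and 1 counts in parental libraries 1, 2 and 3 and 10, 11 and 9 counts in resistant libraries 1, 2 and 3, so parental library 2 matched the resistant libraries and the other parental libraries did not.

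Among the markers of other cell types, *LUM* fell from 96.0 ± 2.96 to 28.8 ± 2.40 CPM (SD, *n* = 3 each; log2 fold change −1.74, FDR 1.11e-26, edgeR), and *MYH11*, a smooth muscle myosin gene, rose from 47, 51 and 18 counts to 244, 173 and 221 counts (log2 fold change 2.47, FDR 1.35e-15, edgeR). *COL1A1* had a log2 fold change of −0.28 (FDR 0.0348, edgeR), but its FDR was above the threshold with DESeq2 (0.102), no filter (0.0698), and without parental library 2 (0.175) or resistant library 1 (0.0806) or 2 (0.109).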
